A study of Mus musculus with 24 samples.

Results

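The cytosolic ribosome is built from ribosomal RNAs and a fixed set of ribosomal proteins, and the genes of those proteins were followed here in mouse brown adipose tissue. Rows of the deposited table were taken by symbol: the Rpl and Rps series, Rplp0, Rplp1, Rplp2 and Rpsa, without rows named as pseudogenes and without the Rps6k kinases. This gave 86 genes of 23017 rows. They comprise 43 genes of the large subunit, the 3 stalk genes, 31 genes of the small subunit and 9 copies of other ribosomal protein genes (Rpl3l, Rpl6l, Rpl32l, Rpl36al, Rpl39l, Rps3a2, Rps3a3, Rps4l and Rps27l). Of the 86, 85 entered the tests with 17263 genes in all; Rpl32l fell below the filter on low values.

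PolyA RNA came from brown adipose tissue of C57BL/6J mice, 6 samples in each of 4 groups. Vehicle mice received no drug. LAGIPRA is a long-acting agonist of the receptor for the gut hormone GIP. TZP stands for tirzepatide, an agonist at the receptor for GIP and at that for another gut hormone, GLP-1. PairFedVehicle mice received vehicle and a food ration matched to that eaten by another group. The series title describes the animals as obese and insulin resistant and asks for effects of GIP receptor agonism that do not depend on weight. Dose, duration, age, sex, diet and the group that set the ration are unstated in these sources. Sample codes in the labels are consecutive inside a group, so an order of processing cannot be told apart from treatment. Nothing in the labels says that the 6 samples of a group come from separate mice, so the p-values measure the spread between samples.

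Most ribosomal proteins occur once in each ribosome, and cells keep their synthesis in step. Much of that control acts on translation: mRNAs of ribosomal proteins start with a stretch of pyrimidines, the 5′ TOP, through which the kinase mTOR and the RNA-binding protein Larp1 switch them on and off with nutrients and insulin. Their total amount, measured here, is only one part of that control. Brown adipocytes also hold a separate set of ribosomes in their many mitochondria, whose proteins are encoded by other nuclear genes, the Mrpl and Mrps series.

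Windows of 30 bases around the annotated start are shown for 7 of the genes that passed a test below, because the 5′ TOP lies there. Sequences come from RefSeq for GRCm38.p6, 5′ to 3′ on the transcribed strand, with 15 bases on each side of the first listed start, so that the start is base 16. Capitals mark a run of at least 5 C or T that begins with C within 5 bases of the start.
Rps6 (chr4:86857353-86857382, minus strand): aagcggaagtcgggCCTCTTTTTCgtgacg
Rpl13a (chr7:45128731-45128760, minus strand): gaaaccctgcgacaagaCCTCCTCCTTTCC
Rps15a (chr7:118116133-118116162, minus strand): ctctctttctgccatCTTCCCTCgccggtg
Rpl28 (chr7:4792950-4792979, plus strand): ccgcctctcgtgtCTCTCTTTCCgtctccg
Rpl39 (chrX:37085208-37085237, minus strand): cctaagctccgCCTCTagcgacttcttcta
Rpl37 (chr15:5116598-5116627, plus strand): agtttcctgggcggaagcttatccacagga
Rps3 (chr7:99483695-99483724, minus strand): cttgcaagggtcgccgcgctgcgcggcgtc
A run was present in 28 of the 62 genes with an entry (45.2%) and in 4989 of 27025 starts of all genes (18.5%). Among the 10 genes with an entry that passed a test in any comparison, 6 had a run, and Rpl37 and Rps3 were among those without. A run is a match of letters at 1 annotated start, not a measured transcript end.

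Many of these genes have near-identical copies in the genome, and this bears on how reads were assigned. A 50-base stretch present in a transcript of another gene occurred in 83 of the 86 genes in GENCODE M21, and 39 genes had more than 50% of their windows shared. Windows were taken from the longest protein-coding transcript of a gene, or its longest where none is coding. The share therefore depends on the transcript taken. No shared window was found in 3 genes, Rpl3l and Rpl39l among them. Rps3a2 and Rps3a3 are annotated there as processed pseudogenes, as are Rpl6l and Rpl32l, and Rps4l is annotated as a processed transcript. The first 60 bases of the open reading frame are the same in Rps3a1, Rps3a2 and Rps3a3, so a read from within them cannot be assigned to 1 of the 3 (no base differs, and none is in capitals):
Rps3a1, Rps3a2 and Rps3a3: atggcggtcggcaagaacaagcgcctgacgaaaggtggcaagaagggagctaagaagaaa
Over their whole length, 90.2% of windows of Rps3a2 and 65.1% of those of Rps3a3 were shared. The table also holds 144 rows named as pseudogenes of ribosomal proteins. Of the 46 members with such a row, 39 had a lower mean than their highest pseudogene row. The median of the means was 9.24 in these rows and 7.83 in the members. Rpl28 averaged 5.80, Rps12 8.32 and Rpl3 7.71, where a pseudogene row of each averaged 14.09, 14.56 and 13.11. Values of members with shared sequence are therefore uncertain as values of that gene. How shared reads were counted is unstated.

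Values are on a log2 scale that was inferred from the table, and they are not shown to be scaled by transcript length, so levels are compared between samples and not between genes. Among the members the SD pooled over groups had its lowest value in Rpsa, 0.091, and its highest in Rpl3l (2.25), Rpl32l (0.84) and Rpl39l (0.39).

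Libraries differed as wholes, and the values bear on every comparison. Of 8 brown adipocyte markers, Ucp1 ran from 14.7 to 15.9 over the libraries, Cidea from 12.7 to 13.8 and Adipoq from 12.1 to 12.8, while the regulators Prdm16 and Ppargc1a were at 3.16 to 5.48 and 4.12 to 6.50. Plin1, Dio2 and Elovl3 averaged 10.41, 8.21 and 7.63. In TZP against Vehicle Ucp1 and Cidea rose by 0.50 and 0.45 and Prdm16 fell by 0.81 on the log2 scale (limma adjusted p = 0.0058, 0.0079 and 0.0351). Skeletal muscle markers (16 genes) had library means from 0.97 to 10.2, with the 3 lowest in Vehicle 1, TZP 3 and PairFedVehicle 5, and no marker was called in any comparison. Macrophage markers (6 genes) had library means of 8.09 to 9.18 in Vehicle, 7.57 to 8.62 in LAGIPRA, 7.73 to 8.84 in TZP and 7.76 to 9.34 in PairFedVehicle. The value of 1 read, a proxy for shallow sequencing, ran from 0.85 to 1.55 in Vehicle and from 1.17 to 2.20 in LAGIPRA. It ran from 0.95 to 1.89 in TZP and from 1.03 to 1.39 in PairFedVehicle. In TZP 3 to 6, values relative to the mean of all libraries fell with transcript length, by 0.06 to 0.13 on the log2 scale per doubling; in the other libraries this slope ran from -0.01 to 0.05. The ribosomal protein genes are short, with a median length of 641 bases against 1274 in all tested genes. In bulk tissue, fewer cells of a type and less RNA per cell cannot be told apart.

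Within a library the members moved together. Each gene was set against its own mean over 24 libraries and the median over the members was taken. In LAGIPRA this median was 0.03 in library 1, -0.09 in libraries 2 and 3, -0.14 in library 4, -0.15 in library 5 and -0.16 in library 6. In Vehicle it ran from -0.09 to 0.19, in TZP from -0.23 to 0.17 and in PairFedVehicle from -0.15 to 0.23. So 5 of 6 LAGIPRA libraries lay below 0 and 1 just above it. TZP was split most widely, with TZP 1 at -0.23 and TZP 3 at 0.17.

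**Figure D1:**
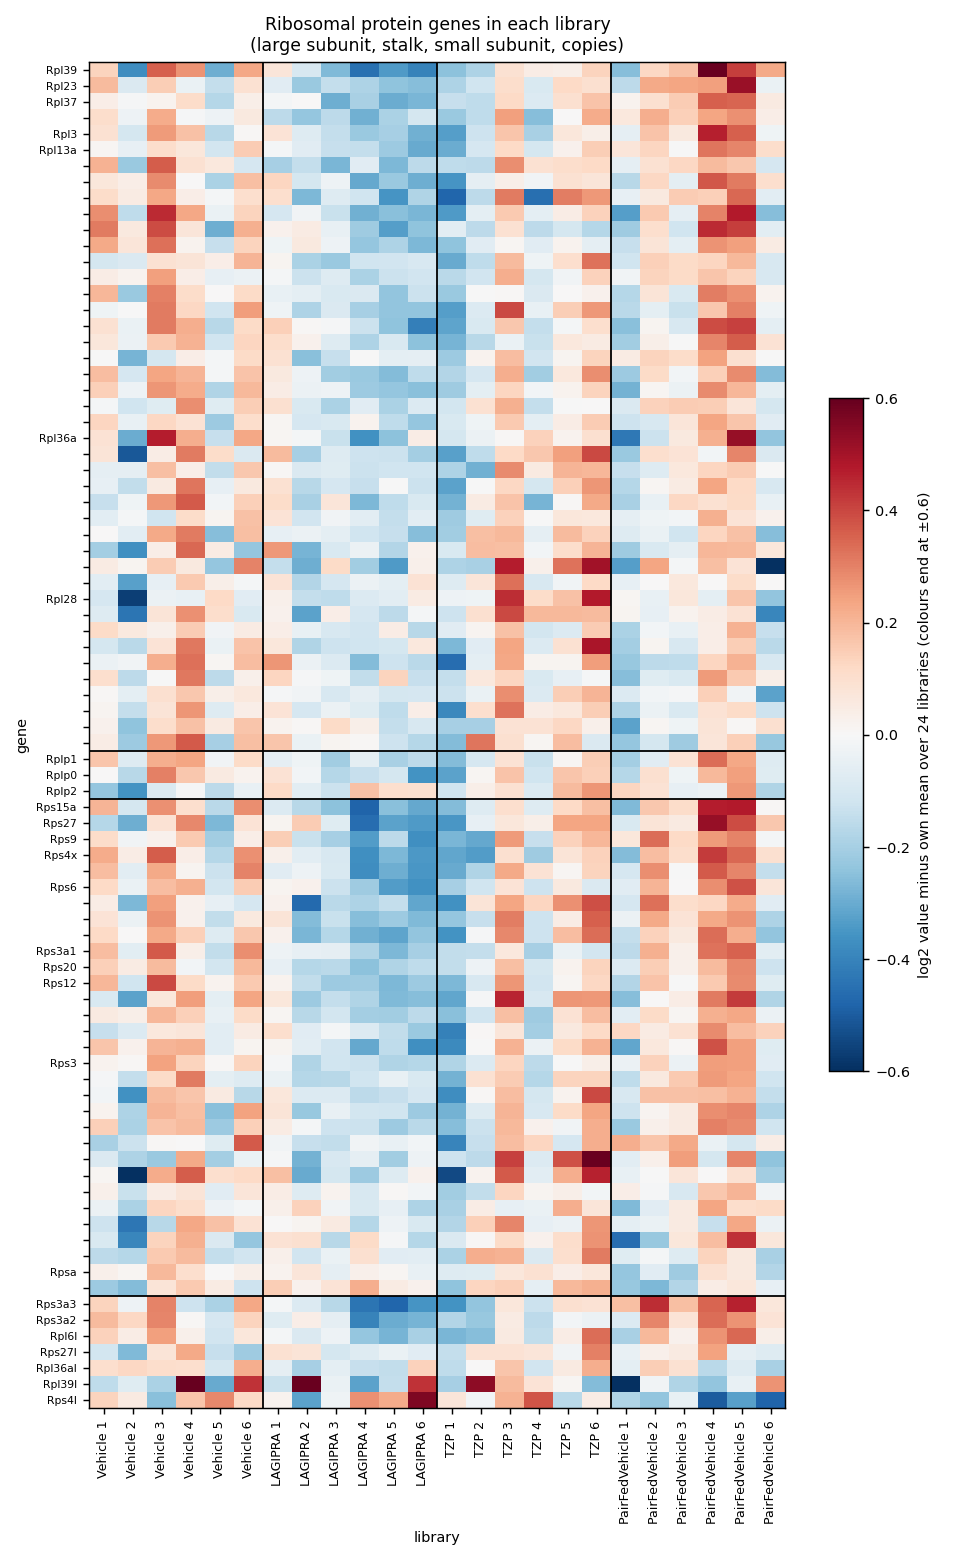
Each row is a gene and each column a library; colour gives the log2 value minus the gene's own mean over 24 libraries, and lines separate groups of libraries and classes of genes. Rows are ordered within a class by the change in LAGIPRA against PairFedVehicle, and Rpl3l and Rpl32l are not drawn; only genes described in the text are labelled. Blue columns in LAGIPRA 4 to 6 and TZP 1, and red ones in PairFedVehicle 4 and 5, run through nearly all classes.

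Macrophage markers moved with these medians. In LAGIPRA 4, 5 and 6 the macrophage mean was 7.57, 7.58 and 7.70, and in LAGIPRA 1, 2 and 3 it was 8.62, 8.56 and 8.39. In TZP 1 it was 7.73 and in TZP 3 it was 8.84. In PairFedVehicle 1, with a member median of -0.15, it was 7.76, and in PairFedVehicle 5, with a member median of 0.23, it was 9.34. Vehicle 2 went the other way, with 8.78 beside a member median of -0.09. The value of 1 read, the proxy for shallow sequencing, also differed between these libraries. It was 2.20, 1.60 and 2.03 in LAGIPRA 4, 5 and 6 and 1.17, 1.22 and 1.22 in LAGIPRA 1, 2 and 3. In TZP 1 and TZP 3 it was 1.73 and 1.45, and in PairFedVehicle 1 and 5 it was 1.39 and 1.22. Vehicle 4 went the other way, with 1.55 beside a member median of 0.16. The part of either in the comparisons below was not tested beyond a fit that holds it constant. Such fits are given below where they moved a count or a median.

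**Figure D2:**
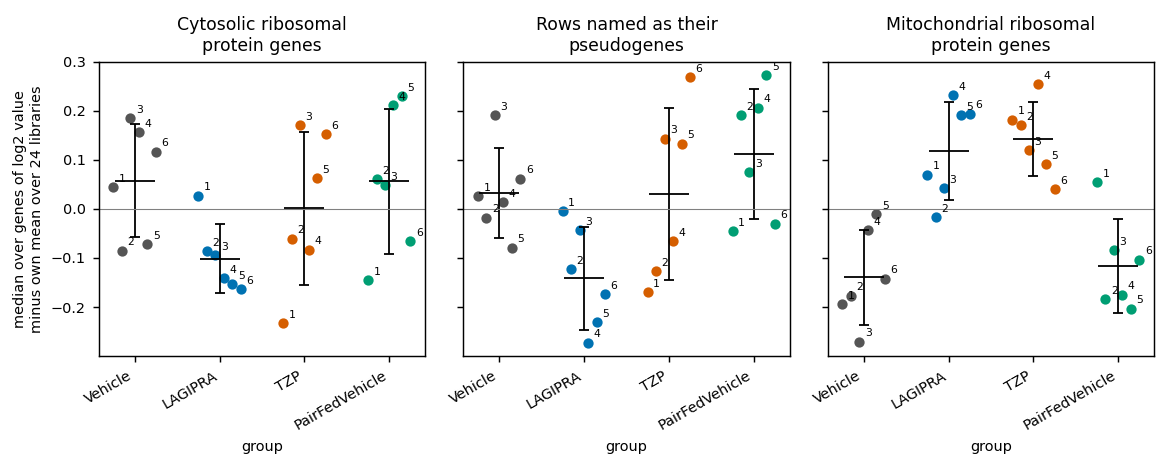
Each point is 1 library (numbered), at the median over genes of the log2 value minus the gene's own mean; lines and bars give the mean and SD over 6 libraries. Cytosolic ribosomal protein genes and the rows of their pseudogenes were low in LAGIPRA, while mitochondrial ribosomal protein genes were high in LAGIPRA and TZP.

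Treatment with LAGIPRA against pair feeding asks for an effect of the GIP receptor agonist beyond that of eating less, as far as the ration matches. Here 14 members passed the test, 1 higher and 13 lower, in both subunits. They make up 16.5% of the 85 members, where 11.9% of all tested genes passed. In the lower direction it was 13 members beside 4.55% of all genes, and in the higher direction 1 member beside 7.3%. The test was limma with Benjamini-Hochberg adjustment over all 17263 genes and a threshold of 0.05, as in every comparison below. The median log2 change of the members was -0.16 against -0.01 over all tested genes, and 76 of 85 were below 0. By class, 6 of 43 large subunit genes, 0 of 3 stalk genes and 5 of 31 small subunit genes fell, and of 8 tested copies 2 fell and 1 rose.

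The large subunit genes that fell included Rpl37, Rpl13a, Rpl23, Rpl39 and Rpl3. Values are given as the lowest, median and highest of 6 samples. Rpl37 was 8.92, 8.98 and 9.22 in LAGIPRA and 9.24, 9.34 and 9.57 in PairFedVehicle. The groups did not overlap, and the log2 change was -0.35 ± 0.077 (SE; limma adjusted p = 0.0042). Rpl13a, which also acts off the ribosome in silencing inflammatory mRNAs, was 8.59, 8.75 and 8.88 against 8.89, 9.01 and 9.21. Here too the groups did not overlap (-0.30 ± 0.075, SE; limma adjusted p = 0.0102). Groups not overlapping in this way with LAGIPRA lower were found in 4 members, beside 2.15% of all tested genes.

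Rpl39, a small protein that lines the tunnel through which the new chain leaves, had the widest spread of these. Its values were 9.13, 9.27 and 9.65 in LAGIPRA and 9.32, 9.78 and 10.16 in PairFedVehicle, so the groups overlapped (-0.46 ± 0.136, SE; limma adjusted p = 0.0288). Rpl23, at the face between the subunits, changed by -0.36 (limma adjusted p = 0.0113). Rpl3, next to the site of peptide bond formation, changed by -0.30 with limma adjusted p = 0.0494, close to the threshold.

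Of the small subunit, Rps15a, Rps6, Rps9, Rps3 and Rps20 fell. Rps15a was 7.76, 7.99 and 8.16 in LAGIPRA and 7.98, 8.38 and 8.72 in PairFedVehicle, with some overlap (-0.42 ± 0.113, SE; limma adjusted p = 0.0182). In its longest coding transcript, of 5179 bases, 327 of 5130 windows (6.37%) occur in other genes. The median length of its transcripts is 637 bases, so this low share depends on the transcript taken. Rps6, the substrate of the S6 kinases below mTOR, was 7.94, 8.14 and 8.34 against 8.24, 8.45 and 8.69. Its log2 change was -0.31 ± 0.086 (SE; limma adjusted p = 0.0191), and 84.6% of its windows are shared. Rps9, which lies near the mRNA entry site and the decoding centre, was 7.49, 7.68 and 7.9997 against 7.84, 8.04 and 8.19, with some overlap (-0.35 ± 0.103, SE; limma adjusted p = 0.0271). Rps3, at the mRNA entry channel, and Rps20 changed by -0.21 and -0.23 (limma adjusted p = 0.0364 and 0.0377). Of their windows 2.96% and 7.57% are shared. For Rps20 that is 277 of 3657 windows in a transcript of 3706 bases, where its median transcript length is 582. This share too depends on the transcript taken.

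Copies of ribosomal protein genes went both ways. Rps3a3 was 11.43, 11.64 and 11.89 in LAGIPRA and 11.97, 12.17 and 12.37 in PairFedVehicle, with no overlap (-0.54 ± 0.105, SE; limma adjusted p = 0.0016). Rps3a2 changed by -0.34 (limma adjusted p = 0.0099). Rps3a1, the gene that both resemble, was at -0.25 with limma adjusted p = 0.0837 and did not pass. Rps4l, a copy of Rps4x, was the member that rose: 10.47, 10.91 and 11.35 in LAGIPRA against 10.29, 10.51 and 10.75 in PairFedVehicle (0.42 ± 0.121, SE; limma adjusted p = 0.0261). Its parent Rps4x, a small subunit gene on the X chromosome, was at -0.33 with limma adjusted p = 0.0614, and only 14.9% of the windows of Rps4l are shared.

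Members above 50% of shared windows and those at or below it both had medians under 0. Among the 39 tested members with more than 50% of windows shared the median log2 change was -0.17, and among the other 46 it was -0.11. In LAGIPRA against either vehicle group, 14 members fell in all, 6 of them over 50% shared and 8 at or below 50%. Rps15a and Rps20 are placed among the 8 by long transcripts. Of all tested genes 4.55% fell against PairFedVehicle and 5.03% against Vehicle. Rows named as pseudogenes fell as well. In LAGIPRA against PairFedVehicle 37 of 125 tested were lower and 2 higher, with a median of -0.24. Reads cannot be divided between these rows and the genes, and the part of read sharing in the lower values was not tested.

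Macrophage markers had a median log2 change of -0.38 in this comparison with 0 of 6 called, and muscle markers one of 1.68 with 0 of 16 called. With the macrophage mean held constant, 8 members were lower and 1 higher and the median was -0.05. In that fit 1594 of 17263 genes passed in all. Without the 3 libraries lowest in muscle 6 members and 1460 genes in all passed. Without PairFedVehicle 1, 4 or 5 it was 24, 6 and 7 members, beside 2472, 1430 and 1556 genes in all. Without LAGIPRA 4, 5 or 6 it was 7, 8 and 7 members, beside 1422, 1404 and 1488.

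**Figure D3:**
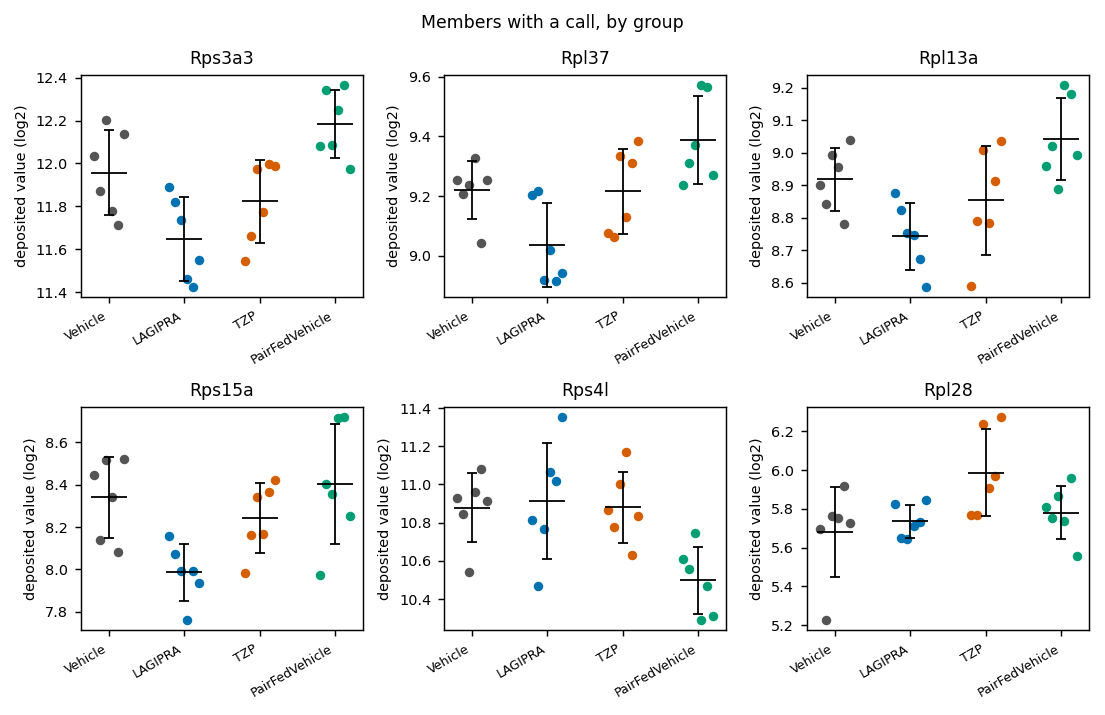
Deposited log2 values of 6 members in each of 24 samples, by group, with the mean and SD of 6; the vertical axes do not start at 0 and differ between panels. In Rps3a3, Rpl37 and Rpl13a every LAGIPRA sample lies below every PairFedVehicle sample, Rps4l is low in PairFedVehicle, and Rpl28 has 1 low Vehicle sample at 5.23.

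Against free-fed Vehicle, LAGIPRA gave 6 lower members and none higher. That is 7.06% of the members, below the 13.7% of all genes that passed. In the lower direction alone 5.03% of all genes passed. The median log2 change was -0.17 against 0.03 over all genes, with 74 of 85 below 0. So the members leaned one way by small steps, most of which did not pass. Unadjusted p was under 0.05 in 32 of 85 members and in 5436 of 17263 genes in all. This comparison shares its LAGIPRA libraries with the one above, and 5 of the 6 were called in both, among them Rps3, Rps15a, Rps20 and Rps3a2.

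Rps3 was 9.86, 9.89 and 10.04 in LAGIPRA and 10.05, 10.12 and 10.29 in Vehicle. The groups did not overlap (-0.22 ± 0.066, SE; limma adjusted p = 0.0305). Non-overlap with LAGIPRA lower was found in 2 members and in 1.49% of all tested genes. Rps15a was 8.08, 8.39 and 8.52 in Vehicle (-0.35 ± 0.113, SE; limma adjusted p = 0.0407). Rps12, in the head of the small subunit, was 8.05, 8.10 and 8.33 in LAGIPRA and 8.19, 8.45 and 8.71 in Vehicle (-0.30 ± 0.093, SE; limma adjusted p = 0.0354). Rps20 and Rps3a2 changed by -0.23 and -0.28 (limma adjusted p = 0.0364 and 0.0300).

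All 6 macrophage markers were lower here, 3 of them called, with a median of -0.75; muscle markers had a median of 1.85 with 0 called. No member passed with the macrophage mean, the muscle mean or the value of 1 read as a covariate, and the median was then 0.01 with the macrophage mean. Of 17263 genes in all, 17, 1458 and 45 passed in these fits, beside 2370 without a covariate. No member passed without Vehicle 3 or 6 or without LAGIPRA 4, 5 or 6. Of 17263 genes in all, 1039, 1166, 971, 945 and 1391 passed in that order. One member passed without Vehicle 1, 2 without LAGIPRA 3, 11 without LAGIPRA 1 and 19 without Vehicle 5. Over all genes it was 1207, 2029, 2441 and 3819, so the count over all genes moved as well.

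Tirzepatide against free-fed Vehicle changed many genes of the tissue but 1 member. In all, 22% of tested genes passed, 11.7% in the higher direction, and of the members 1.18%, the 1 being higher. The median over members was -0.04 against 0.04 over all genes, with 58 of 85 below 0. Rpl28, a large subunit protein, was the gene that passed: 5.77, 5.94 and 6.27 in TZP against 5.23, 5.74 and 5.92 in Vehicle. The groups overlapped (0.31 ± 0.105, SE; limma adjusted p = 0.0396), and 1 Vehicle sample lay far below the other 5. The call was lost without that sample (Vehicle 2). No member was called either without Vehicle 1, 3 or 6 or without TZP 3, 4, 5 or 6. Of 17263 genes in all, 2907, 2739, 3089, 3762, 2772, 2884 and 3196 were called in that order. Without Vehicle 4, Vehicle 5 and TZP 1 it was 2, 5 and 2 members, beside 3541, 4494 and 3796 genes in all. The TZP libraries were of 2 kinds in transcript length, and with TZP 1 and 2 alone the median over members was -0.22. It was -0.21 with the length slope as a covariate, -0.13 after a correction for transcript length, 0.03 with the value of 1 read and 0.08 with the macrophage mean, so its sign is not settled.

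Against PairFedVehicle, tirzepatide gave 3 called members, all copies. That is 3.53% of the members beside 16.4% of all genes; 1 was higher, beside 8.39%, and 2 were lower, beside 8.02%. Rps3a3 was 11.54, 11.87 and 11.997 in TZP, overlapping with the pair-fed values given above (-0.36 ± 0.105, SE; limma adjusted p = 0.0207). Rps3a2 changed by -0.26 (limma adjusted p = 0.0398). Rps4l was 10.63, 10.85 and 11.17 in TZP and was higher by 0.38 ± 0.121 (SE; limma adjusted p = 0.0324). No gene of the large subunit, the stalk or the small subunit passed, and their medians were -0.02, -0.04 and -0.06. These calls share the pair-fed libraries with LAGIPRA against PairFedVehicle; in that comparison Rps3a3, Rps3a2 and Rps4l had changed by -0.54, -0.34 and 0.42. One call was left without TZP 4 or without PairFedVehicle 2, 4 or 5, and 8 were made without PairFedVehicle 1. Of 17263 genes in all, 2018, 2191, 2113, 2538 and 3015 passed in that order. With TZP 1 and 2 alone 6 members and 1031 genes in all passed, and the median over members was -0.21. That median, -0.04 without a covariate, was -0.17 with the length slope, -0.11 after length correction, 0.01 with the value of 1 read and 0.03 with the macrophage mean.

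Pair feeding by itself moved no member past the test. Of all genes 8.61% passed in PairFedVehicle against Vehicle, and 0 of 85 members did in limma or in the exact permutation test. That permutation test passed 821 of 17263 genes in all. Unadjusted p in limma was under 0.05 in 6 members and in 3977 of 17263 genes in all. The median over members was 0.02, the same as over all genes, with 36 below 0. Rps4l came nearest, with 10.54, 10.92 and 11.08 in Vehicle and a change of -0.38 ± 0.121 (SE; limma adjusted p = 0.0514). Rpsa, the small subunit protein also known as a laminin receptor, was at -0.15 (limma adjusted p = 0.0962). With the macrophage mean held constant 10 members passed, 9 higher and 1 lower, and the median was 0.07. In that fit 2012 of 17263 genes passed in all. Without Vehicle 3 or without PairFedVehicle 3, 4 or 5, 1 member passed. Of 17263 genes in all, 1138, 1094, 1299 and 1567 passed in that order.

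The agonists themselves were compared last. Tirzepatide acts on the GLP-1 receptor as well as the GIP receptor, and with doses and duration unstated, whether exposure was matched is unknown. In TZP against LAGIPRA 0 of 85 members passed in limma. The exact permutation test called 0 of 17263 genes in this comparison, so it says nothing about the members. In limma 0.4% of all genes passed. Unadjusted p in limma was under 0.05 in 11 members and in 2835 of 17263 genes in all. Of 85 members 77 were above 0, with a median of 0.11 against 0.01 over all genes. That median was 0.01 with the length slope as a covariate, 0.05 after length correction and 0.07 with the macrophage mean. Erythroid markers also differed: 3 of 5 were called lower in TZP, with a median of -1.56, and their part in the members' values was not tested. For Rpl37 the difference was 0.18 with an approximate 95% interval from 0.03 to 0.33 (limma adjusted p = 0.244), and for Rps3a3 it was 0.18 with an interval from -0.03 to 0.38 (limma adjusted p = 0.416). With TZP 1 and 2 alone the median was -0.03, and without TZP 1, 2 members passed. That last fit called 1043 of 17263 genes in all.

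**Figure D4:**
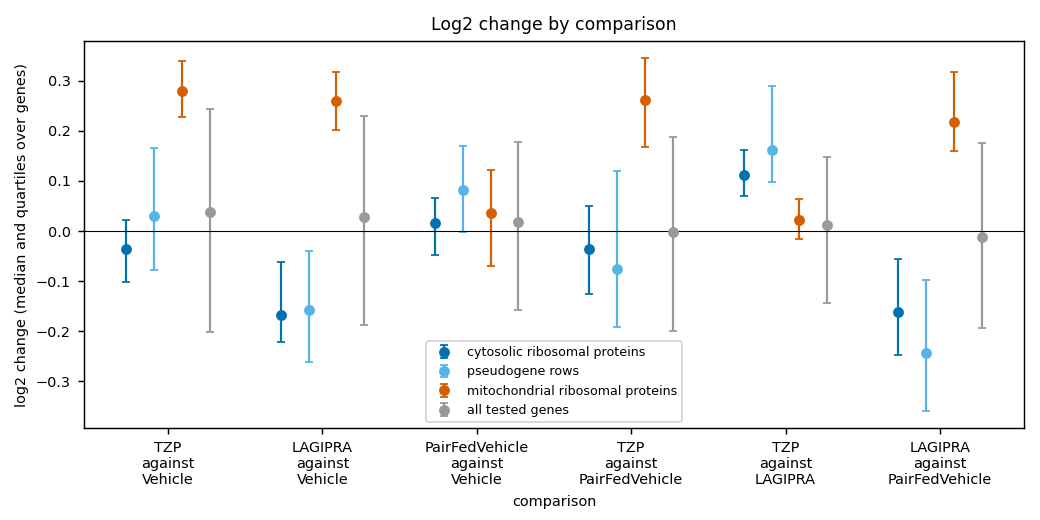
Points give the median log2 change over genes in each of 6 comparisons and bars the quartiles over genes, for 85 cytosolic ribosomal protein genes, 125 rows of their pseudogenes, 78 mitochondrial ribosomal protein genes and 17263 tested genes; bars are not errors over samples. The cytosolic set lies below 0 in both LAGIPRA comparisons, at -0.17 and -0.16, where the mitochondrial set lies at 0.26 and 0.22.

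The stalk proteins, which recruit the elongation factors, did not pass in any comparison. Rplp0 was 9.09, 9.33 and 9.54 in LAGIPRA and 9.28, 9.49 and 9.75 in Vehicle, at -0.18 ± 0.095 (SE; limma adjusted p = 0.201). Rplp1 was 10.69, 10.79 and 10.87 against 10.82, 11.04 and 11.13, at -0.22 ± 0.085 (SE; limma adjusted p = 0.0772). Rplp2 leaned the other way, 7.69, 7.92 and 7.995 against 7.46, 7.70 and 7.81, at 0.20 ± 0.081 (SE; limma adjusted p = 0.0993). Rplp1 and Rplp2 act as a pair on Rplp0, and their differences from Vehicle had opposite signs. In TZP against Vehicle Rplp2 was at 0.21 (limma adjusted p = 0.0646) and Rplp1 at -0.15 (limma adjusted p = 0.221).

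Rpl3l replaces Rpl3 in the ribosomes of striated muscle, and it varied more than any other member. It was 0.25, 4.94 and 6.95 in Vehicle and 3.22, 5.72 and 6.41 in LAGIPRA. In TZP it was -0.23, 4.82 and 7.08, and in PairFedVehicle 0.52, 4.24 and 7.38. The groups overlapped throughout and it was called in no comparison. Its lowest values were in TZP 3, Vehicle 1 and PairFedVehicle 5, the libraries with the lowest muscle marker means (1.27, 1.11 and 0.97), and its highest was in PairFedVehicle 6, with the highest muscle mean (10.2). Rpl3, the parent, lay between 7.38 and 8.18 in all 24 libraries.

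**Figure D5:**
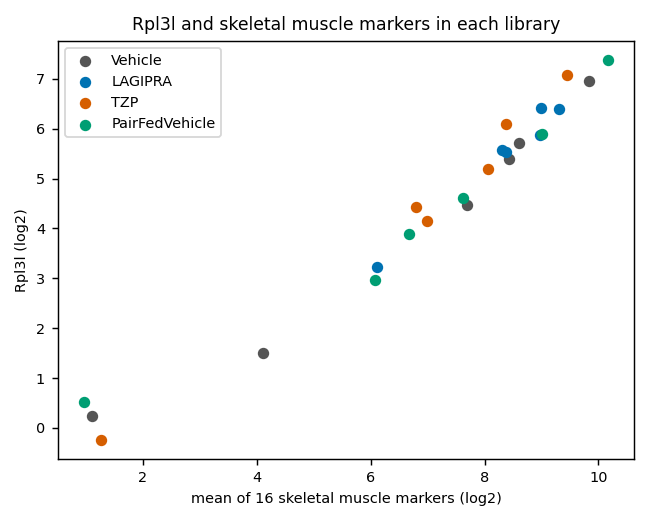
Each point is 1 library, coloured by group; the horizontal axis gives the mean of 16 skeletal muscle markers and the vertical axis Rpl3l, both as deposited log2 values. Rpl3l ran from -0.23 to 7.38 and its order followed the muscle mean closely in all 4 groups.

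The other tested copies passed in no comparison. Rpl36al, which encodes nearly the same protein as Rpl36a, had group medians from 10.49 in LAGIPRA to 10.69 in Vehicle; those of Rpl36a ran from 6.19 in LAGIPRA to 6.41 in Vehicle. Rps27l, a copy of Rps27 known as a target of p53, had medians from 7.21 in Vehicle to 7.42 in TZP; those of Rps27 ran from 5.72 in LAGIPRA to 6.04 in PairFedVehicle. Rpl39l, the copy of Rpl39 known from testis, had medians from 5.31 to 5.47 and means from 5.22 in PairFedVehicle to 5.51 in Vehicle. Rpl6l had medians from 11.04 in LAGIPRA to 11.29 in PairFedVehicle. Rpl36al, Rpl36a, Rps27l, Rps27, Rpl39l and Rpl6l passed in no comparison.

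The mitochondrial ribosome went the other way in LAGIPRA. Of 78 genes, all tested, 50 were called higher in LAGIPRA against Vehicle and 29 in LAGIPRA against PairFedVehicle, and none was called lower. Of all tested genes 8.7% and 7.3% rose. The medians were 0.26 and 0.22, and 2 of the 78 genes were below 0 in each comparison. In TZP 62 rose against Vehicle and 46 against PairFedVehicle (medians 0.28 and 0.26), where 11.7% and 8.39% of all genes rose, and in PairFedVehicle against Vehicle 0 rose and 1 fell. The medians of the cytosolic set in the same order were -0.17, -0.16, -0.04, -0.04 and 0.02. In LAGIPRA 4, 5 and 6, the LAGIPRA libraries lowest in macrophage markers, the mitochondrial median relative to each gene's own mean was 0.23, 0.19 and 0.19, and in LAGIPRA 1, 2 and 3 it was 0.07, -0.02 and 0.04. In TZP against Vehicle 5 of 7 endothelial, 5 of 5 erythroid and 1 of 6 macrophage markers were lower. The part of these cells in the values of the mitochondrial set was not tested. Of 37 proteasome subunits, another large set of housekeeping genes, 0 rose and 3 fell in LAGIPRA against Vehicle, 1 rose and 4 fell in LAGIPRA against PairFedVehicle, 3 rose and 0 fell in TZP against Vehicle, 2 rose and 1 fell in TZP against PairFedVehicle and 2 rose and 0 fell in PairFedVehicle against Vehicle. In that order 8.11%, 13.5%, 8.11%, 8.11% and 5.41% of the subunits were called, beside 13.7%, 11.9%, 22%, 16.4% and 8.61% of all genes. Their medians lay between -0.08 and 0.05 in all 6 comparisons.

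Genes that act on ribosomal protein mRNAs or carry a 5′ TOP were called at shares below those of all genes in some comparisons and above them in others. In LAGIPRA against PairFedVehicle, where 11.9% of all genes passed, it was 13.0% of the 5′ TOP list and 16% of the mTOR list. In LAGIPRA against Vehicle it was 13.0% and 8% beside 13.7%, in TZP against Vehicle 8.70% and 20% beside 22%, in TZP against PairFedVehicle 21.7% and 20% beside 16.4%, and in PairFedVehicle against Vehicle 13.0% and 20% beside 8.61%. Of 23 elongation factors and other 5′ TOP genes, 3 fell in LAGIPRA against PairFedVehicle and 0 rose: Eif4b, a helper of the helicase that unwinds mRNA leaders, at -0.40, Nap1l1, a histone chaperone, at -0.35, and the splicing regulator Hnrnpa1 at -0.41 (limma adjusted p = 0.00019, 0.0131 and 0.0266). Against Vehicle 2 fell, Nap1l1 at -0.28 and Hnrnpa1 at -0.37, and the initiation factor subunit Eif3l rose by 0.19 (limma adjusted p = 0.0393, 0.0418 and 0.0349). In TZP 2 fell against Vehicle and 5 against PairFedVehicle with 0 higher; Eif4b was at -0.27 and -0.53 (limma adjusted p = 0.0051 and 9.4e-06). In PairFedVehicle against Vehicle 2 rose, Eif4b among them at 0.26, and 1 fell (limma adjusted p = 0.0122 for Eif4b).

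Of 25 genes of the mTOR pathway and the control of these mRNAs, 2 rose and 2 fell in LAGIPRA against PairFedVehicle. Deptor, an inhibitor within the mTOR complexes, was higher by 0.93 and Mycn by 1.33, while Ddit4 and Sesn2, stress-induced brakes on mTOR, were lower by 0.93 and 0.56 on the log2 scale (limma adjusted p = 0.00047, 0.0084, 0.0069 and 0.0154). In PairFedVehicle against Vehicle, which shares the pair-fed libraries, 2 rose and 3 fell, with Deptor at -0.69, Mycn at -1.61 and Sesn2 at 0.49 (limma adjusted p = 0.0077, 0.0027 and 0.0397). Myc, a driver of ribosome production, fell against Vehicle in LAGIPRA by 0.88, in TZP by 0.54 and in PairFedVehicle by 0.64 (limma adjusted p = 0.0051, 0.0247 and 0.0179). In LAGIPRA against Vehicle 1 rose and 1 fell. In TZP against Vehicle 1 rose and 4 fell, with Larp1 at -0.63 and the mTOR scaffold Rptor at -0.80 (limma adjusted p = 0.0041 and 0.0088), and against PairFedVehicle 2 rose and 3 fell. TZP 3 to 6 are the libraries in which long transcripts read low, and the part of transcript length in these values was not tested.

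Ribosome assembly genes were called at smaller shares than all genes. Of 40 genes 2 rose and 2 fell in LAGIPRA against PairFedVehicle (10% beside 11.9%). Against Vehicle 0 rose and 2 fell (5% beside 13.7%). Nucleolin (Ncl), a major protein of the nucleolus, fell in both, by 0.33 and 0.28 on the log2 scale, and in TZP against PairFedVehicle by 0.28 (limma adjusted p = 0.0157, 0.0383 and 0.0331). In TZP 4 rose and 1 fell against Vehicle (12.5% beside 22%) and 2 rose and 2 fell against PairFedVehicle (10% beside 16.4%). The snoRNP protein Rrp9 was higher in both, by 0.32 and 0.25 (limma adjusted p = 0.0028 and 0.0155). In PairFedVehicle against Vehicle 1 gene rose (2.5% beside 8.61%). Of 11 tested ribosome rescue genes, 2 (18.2%) were called in each drug group against either vehicle group, beside 11.9% to 22% of all genes. Pair feeding against Vehicle had 1 call (9.09% beside 8.61%). In TZP against LAGIPRA none of these lists had a call. Of 5 ribosomal proteins or their relatives that the symbol rule leaves out, Fau, Rack1, Rpl22l1 and Rpl7l1 among them, 0 were called in any comparison, with a median of -0.11 in LAGIPRA against Vehicle and -0.04 against PairFedVehicle.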

How the data were processed

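Brown adipose RNA of 24 samples in 4 groups was extracted with TRIzol and an RNeasy lipid kit and polyA selected, per the labels' protocols. The submitters' processing notes name cutadapt 1.9.1 and GSNAP without their roles; build, annotation, counting and strandedness are unstated. Deposited values were taken as log2, rolled up per gene and quantile normalized by the authors, a scale inferred from the values (-0.50 to 22.35). An offset near 1 would understate changes of low genes. Depth is unknown. The value of 1 read is the commonest low value in a library, put on the linear scale; a shallower library would show a larger one.

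A filter removed the 25% of genes lowest in mean (5754, below 2.86). The remaining 17263 entered tests with limma 3.58.1 in R 4.3.3: 1 mean per group over all 24 samples, empirical Bayes with a trend, two-sided, Benjamini-Hochberg adjusted over all tested genes. Comparisons numbered 6. The script was tested on simulated data. Length slopes come from regression of each library's values, centred per gene, on the log2 length of transcripts (GENCODE M21, known for 89.2% of tested genes and all members). Shared windows of 1 transcript per member, the longest coding one where present, were counted against all GENCODE transcripts, overlapping gene models included. Intervals are normal approximations from the SE. Figures used matplotlib 3.10.9 in Python 3.11.15.

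Members and gene lists were chosen with earlier results of these data known. Named were Rplp0, Rplp1, Rplp2, Rpsa, Rps6, the copies with their parents, the 5 highest and 5 lowest called changes per comparison, the 3 highest and 3 lowest means, the 3 largest SDs, and up to 3 called genes of smallest p of each other list; not all are printed, and the other called members and Rps3a1 were chosen after their values were seen. Some genes are not reported here. Lists covered mitochondrial ribosomal proteins, proteasome subunits, 5′ TOP genes, mTOR control, ribosome assembly and rescue (Gcn1 was not analysed here), ribosomal proteins outside the rule, and markers of brown adipocytes, muscle, endothelium, macrophages, lymphocytes and erythroid cells. Brown adipocyte markers had 2 of 8 higher in each other group against Vehicle and 1 lower in TZP against either vehicle group, endothelial markers 5 of 7 lower in TZP against either vehicle group, erythroid markers 5 of 5 lower in TZP against Vehicle and 3 of 5 against LAGIPRA, and 1 of 5 lymphocyte markers could be tested.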

Additional observations from a re-analysis of the deposited data

Results flagged for a closer look

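In 124 sets of 6 samples (30 genes and the median over members, in 4 groups), 5 had 1 sample far from the rest, with a gap to the nearest sample above 0.625 of the range; chance gives about 1 in 20. Rpl28 was 5.229 in Vehicle 2, where the other Vehicle samples ran from 5.694 to 5.917, and the call in TZP against Vehicle was lost without it. Rpl3l was 3.224 in LAGIPRA 4 against 5.531 to 6.409 in the others, in the LAGIPRA library with the lowest muscle mean (6.12). Rps3 was 10.04 in LAGIPRA 1 against 9.861 to 9.925. Rpl36al was 10.48 in Vehicle 5 against 10.69 to 10.8. Rpl32l, not tested for its low values, was 1.526 in TZP 2 against 3.058 to 3.747.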

How the results depend on the processing

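In LAGIPRA against PairFedVehicle (14 called), sample weights gave 27, the length slope as a covariate 22, the value of 1 read as a covariate 5, the muscle mean as a covariate 9, leaving out the 3 libraries lowest in muscle 6, an exact permutation test 4 and a threshold of 0.01 also 4. Leaving out 1 library at a time gave 6 to 24. Over all 17263 genes 2046 were called in this comparison in the main fit. It was 3260 with sample weights, 2473 with the length slope, 1268 with the value of 1 read and 1707 with the muscle mean. With the 3 libraries out it was 1460, by permutation 1011, and with 1 library out 1404 to 2472. In LAGIPRA against Vehicle (6 called), leaving out the 11508 genes of lowest mean gave 11, only the 2 groups in the fit 17, sample weights 28, cyclic loess 11, transcript length correction 16, the length slope 22, the value of 1 read 0, the muscle mean 0, the 3 libraries out 1, the exact permutation test 2, the threshold of 0.01 0 and a minimum change of 1.2-fold 3; leaving out 1 library gave 0 to 19. In PairFedVehicle against Vehicle (0 called), 1 member passed with 11508 genes left out, only 2 groups, cyclic loess, length correction or the length slope, and 2 with the value of 1 read; leaving out 1 library gave 0 to 1. In TZP against LAGIPRA (0 called), sample weights gave 1 and leaving out 1 library 0 to 2. In TZP against PairFedVehicle (3 called), length correction gave 10, TZP 1 and 2 alone 6, the value of 1 read 1, and the 3 libraries out, the exact permutation test and the threshold of 0.01 each 0; leaving out 1 library gave 1 to 8. In TZP against Vehicle (1 called), length correction gave 6, sample weights 2, and only 2 groups, cyclic loess, the length slope, the value of 1 read, the 3 libraries out, TZP 1 and 2 alone, the exact permutation test and the threshold of 0.01 each 0; leaving out 1 library gave 0 to 5. Where a count moved, the cause was not tested, except that smaller fits have fewer samples. Over all genes PairFedVehicle against Vehicle had 1487 called in the main fit, 1316 with only 2 groups and 1411 with cyclic loess. It was 1633 with the length slope, 1585 with the value of 1 read and 1049 to 1620 with 1 library out. TZP against LAGIPRA had 69 called, 1071 with sample weights and 0 to 1088 with 1 library out. Counts over all genes moved in the other comparisons too. In TZP against PairFedVehicle 2832 were called, 1031 with TZP 1 and 2 alone, 2226 with the 3 libraries out and 850 by permutation. Length correction gave 2618 of 15407 genes, and 1 library out 2018 to 3181. In TZP against Vehicle 3805 were called, 4572 with sample weights, 175 with the length slope and 817 with TZP 1 and 2 alone. Length correction gave 3462 of 15407, permutation 1526 and 1 library out 2739 to 4494. In LAGIPRA against Vehicle 45 were called with the value of 1 read, 4783 with sample weights and 2370 in the main fit. It was 2972 with only the 2 groups, 2280 with cyclic loess, 2793 with the length slope and 1458 with the muscle mean. With the 3 libraries out it was 1233, by permutation 802, and with 1 library out 945 to 3819. Leaving out 11508 genes gave 2353 of 11509, and length correction 2329 of 15407.

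The macrophage mean as a covariate was chosen after seeing the data. It gave 9 called in LAGIPRA against PairFedVehicle, 0 in LAGIPRA against Vehicle and 10 in PairFedVehicle against Vehicle. Of 17263 genes in all, 1594, 17 and 2012 were called with it. With it the median over members was 0.08 in TZP against Vehicle and 0.03 in TZP against PairFedVehicle, both -0.04 without it. The median moved in LAGIPRA against Vehicle from -0.17 to 0.0106 with it and to -0.0699 with the value of 1 read. With TZP 1 and 2 alone the median was -0.22 against Vehicle, -0.21 against PairFedVehicle and -0.03 against LAGIPRA, and with the length slope it was -0.21 in TZP against Vehicle, -0.17 against PairFedVehicle and 0.01 against LAGIPRA (-0.13, -0.11 and 0.05 after length correction). Rpl28 turned to -0.045 with the length slope (limma adjusted p = 0.878). Rpl13a, Rpl37 and Rps3a3 stayed called in LAGIPRA against PairFedVehicle in all 27 alternatives run for single genes. Calls that did not pass in many of them were Rpl3 (lost in 18), Rps20 (17), Rps3 (16), Rps9 (11), Rpl39 and Rps4l (10 each), Rps6 (8) and Rps15a (6) in that comparison. In LAGIPRA against Vehicle Rps15a and Rps20 were lost in 15 each, Rps12 in 13, Rps3a2 in 12 and Rps3 in 9; in TZP against PairFedVehicle Rps3a2 was lost in 17 of 28, Rps4l in 12 and Rps3a3 in 3; and Rpl28 in TZP against Vehicle was lost in 15 of 28.

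Replicate numbers only count samples. Deviations of same-numbered samples correlated from -0.602 to 0.378, not above 0.1 in every pair of any comparison, so they were not treated as pairs. With the number as a block, 10 members were called in LAGIPRA against PairFedVehicle, 2 in LAGIPRA against Vehicle, 1 each in TZP against PairFedVehicle and TZP against Vehicle, and 0 in the others. Over all 17263 genes the block gave 1752 in LAGIPRA against PairFedVehicle, 1921 in LAGIPRA against Vehicle, 2625 in TZP against PairFedVehicle and 3549 in TZP against Vehicle. It gave 1299 in PairFedVehicle against Vehicle and 23 in TZP against LAGIPRA. At most 3 of 6 samples correlated best with their own number.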
